A study of Xenopus laevis with 2 samples.

Results

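The genes described here build or sense the extracellular matrix in *Xenopus laevis* animal caps. They are the gene probes whose array description contains collagen, laminin, fibronectin, integrin, syndecan, glypican, hyaluronan, matrix metalloproteinase, or ADAM or metalloproteinase domain, plus the probe named HAS2. The rule found 42 of 21495 gene probes, which carry 42 different gene names, and did not use any measured value. An animal cap is the prospective ectoderm around the upper pole of the blastula, and it was dissected here at stage 9. In every group mRNA had been injected at the one-cell stage, without Noggin. For active EBF3, 1 ng of mRNA encoded hGR-Xebf3, the transcription factor EBF3 fused to a steroid receptor domain, and 30 µM dexamethasone (DEX) was given for 4.5 hours to activate it. For the control called hGR, 0.4 ng of mRNA encoded the receptor domain alone and DEX was given in the same way. The reference was hGR-Xebf3 caps left without DEX, so that it carried the inactive fusion protein. RNA was hybridized to 2 two-colour arrays, with the treated sample in Cy3 and the reference in Cy5. Each comparison rested on 1 array and 1 biological replicate, and dyes were not swapped. Values below therefore have no replicate error and no p-value, and a dye bias of a single probe enters each ratio to the reference. Where such a bias is the same on both arrays, it cancels in the difference between their ratios, which is also given. In RNA from whole caps, fewer cells of a type and less RNA per cell cannot be told apart.

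The extracellular matrix is a network of secreted proteins and sugars that surrounds cells and separates tissue layers. Collagens, laminins and fibronectin form its fibres and sheets, and hyaluronan is a long sugar polymer made at the cell surface. Integrins are receptors, each an alpha and a beta subunit, that hold cells to these proteins, while syndecans and glypicans are surface proteoglycans. Matrix metalloproteinases cut matrix proteins. In the frog embryo the inner surface of the cap ectoderm lays down fibronectin, on which the involuting mesoderm migrates.

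By wording alone, 33 members were counted as naming a matrix molecule, receptor or enzyme itself. These include HAS-rs, related in sequence to hyaluronan synthases, and the ESTs BG020154, BG021035 and BG579626, which resemble a chain. The line to the rest is therefore not sharp. The other 9 named a domain, a partner, a modifying enzyme or a resemblance. The adapter protein Shc1, for example, entered because its name contains "src homology collagen". The ADAM terms matched 0 probes. Names are those of the array design, and 29 of the 42 matched a single RefSeq symbol. *X. laevis* carries paired L and S copies of many genes, and how far one probe reads both copies is unknown here.

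Of the 42 members, 25 were well above background in all 4 channels, 12 in no channel and 5 in some channels only. On the active EBF3 array 66.7% of members were well above background in both channels, against 50.7% of all gene probes, and on the hGR array 61.9% against 49.2%. None of the 42 spots was flagged non-uniform or saturated. The only gauge of technical spread is the pair of reference channels. If these were not a single RNA pool, their spread also holds the difference between the reference samples. Across the 29 members whose Cy5 signals were well above background on each array, the log2 difference between the references had an SD of 0.17 and ran from -0.51 (flrt2) to 0.27 (HAS-rs). The SD over all 11243 such probes was also 0.17. An error given with a log2 ratio below is the one that the scanner software assigned to the spot, and it covers that spot only.

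With active EBF3, a few matrix and adhesion genes stood far from the reference, while most of those measured did not. Of the 28 members well above background in both channels of this array, 21 were under 2-fold. Another 13 members had neither channel well above background. At least 2-fold higher were 5 members, for the collagen chains col9a3 and col1a2, the transmembrane proteins flrt3 and flrt2, and integrin alpha 3. At least 2-fold lower were 2 members, HAS-rs and MGC52622. The 5 higher members are 11.9% of the 42, against 2.11% of all 21283 usable probes, and the 2 lower members are 4.76%, against 2.03%. Of these, flrt3, flrt2 and MGC52622 were named loosely. Among the 33 members counted as naming a matrix molecule, receptor or enzyme itself, 3 were higher and 1 was lower, beside the same shares of all probes. The 1 lower was HAS-rs, itself named by relation to the hyaluronan synthases. Members were better measured than most probes. Restricting to probes with both channels well above background gave 17.9% and 7.14% of 28 members, against 2.51% and 2.41% of 10690 probes. Among probes not described as ESTs they were 13.2% and 5.26% of 38 members, against 3.39% and 3.12% of 8143 probes. The median log2 ratio of the members was -0.02, beside -0.09 for all probes. Centred on the median with no dye curve, the signals gave 8 members past 2-fold higher (19.0%, against 9.07% of all probes) and 2 lower (4.76%, against 4.23%), and 5 of those 8 had a channel well above background. No test was possible on 1 array, and these shares describe it only.

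In hGR caps with DEX the members measured in both channels stayed close to the reference. By signals as they stand, the only member at least 2-fold higher was HAS2, or 2.38% of the 42, against 1.02% of 21343 probes. Its Cy5 signal was not well above background, and by processed signals the bound on its difference was at least 1.78-fold, spot error not included. The 1 member past 2-fold lower (2.38%, against 4.08% of all probes) was mmp21-A, at signals of 40.9 in Cy3 and 125 in Cy5. Both were substitutes that the software gives to spots not above background, so they hold no measured difference. The 26 members well above background in both channels ran from -0.54 to 0.52 on the log2 scale. The median over the 42 was -0.01, beside -0.06 for all probes. With the signals centred on the median instead of fitted with a dye curve, 8 of 41 members were past 2-fold higher (19.5%, against 13.5% of all probes) and 0 lower (against 3.22%), and 1 of those 8 had a channel well above background.

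**Figure D1:**
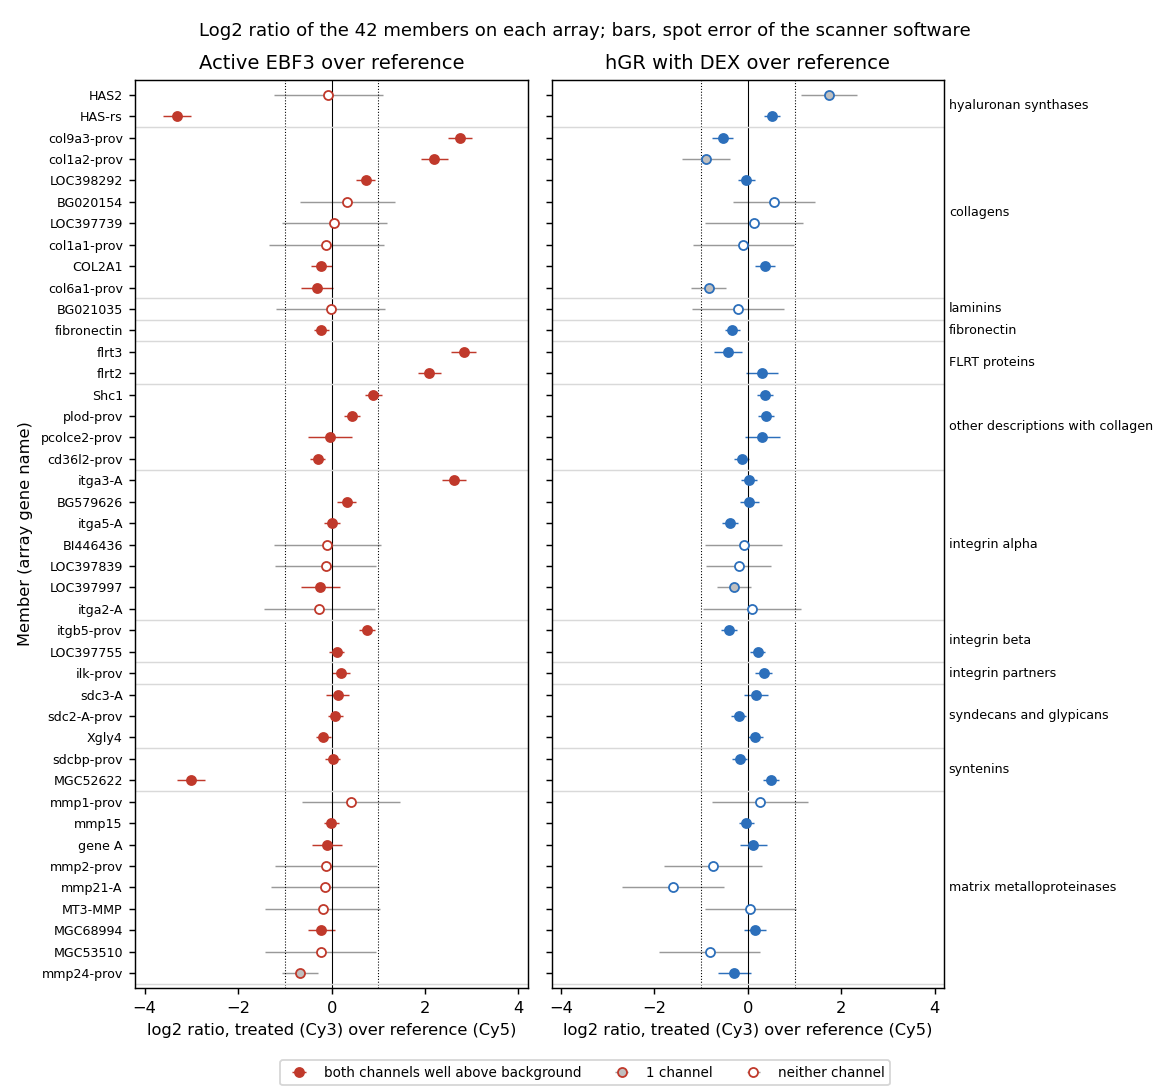
Log2 ratio of treated sample (Cy3) over reference (Cy5) for each of the 42 members, grouped by role, on the active EBF3 array (left) and the hGR array (right). Bars are the spot error of the software, filled points have both channels well above background, grey points 1 channel and open points neither, and dotted lines mark 2-fold. With active EBF3, 5 members lie beyond 2-fold higher and 2 beyond 2-fold lower.

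Among hyaluronan synthases, HAS-rs had the lowest ratio of the 42 members. It encodes a protein related in sequence to the hyaluronan synthases. Its processed signal was 47606 in active EBF3 caps and 468062 in the reference of that array, and it was 684619 in hGR control caps and 476509 in the reference of the second array. The active EBF3 channel stood alone below the other 3. HAS-rs was thus 9.83-fold lower in active EBF3 caps (log2 -3.30 ± 0.30) and 1.44-fold higher in hGR control caps (0.52 ± 0.17). The brightest raw mean signal of this spot in any channel was 55024, and no channel was flagged as saturated.

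HAS2, an enzyme that makes hyaluronan, was at the edge of detection. Its signals were 93.1 in active EBF3 caps, 97.8 and 74.0 in the 2 references, and 245 in hGR control caps, the only channel well above background. By processed signals it was at least 1.78-fold higher in hGR control caps than in the reference. This bound was set by the dimmest signals well above background. It does not cover the spot error and is open to dye bias. The ratio of signals as they stand was 1.73 ± 0.60 on the log2 scale. With normexp background correction and an offset of 50 it was 0.37, below 2-fold and also below the bound of 1.78-fold. The bound is thus not a minimum under other processing. No fold is given for HAS2 on the active EBF3 array, where neither channel was well above background.

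The wording of the rule missed other genes of hyaluronan and of the disintegrin proteases, which were searched for by name once the values were known. MGC52910 is annotated as DG42 protein, known in *Xenopus* as a hyaluronan synthase. Its signals were 62043 in active EBF3 caps and 356116 in the reference, and 587168 in hGR control caps and 331010 in the reference. It was 5.74-fold lower in active EBF3 caps and 1.77-fold higher in hGR control caps, so that, like HAS-rs, its lowest signal was in active EBF3 caps and its highest in hGR caps. Of the 10 probes found in this way, DG42 was the 1 past 2-fold on the active EBF3 array, and 0 were past it on the hGR array. Of all usable probes, 2.03% were at least 2-fold lower with active EBF3. The probe for hyaluronidase 2 (hyal2-prov), which breaks hyaluronan down, was 1.24-fold and 1.07-fold lower on the 2 arrays. The probe for hyaluronic acid synthase 3 (LOC399037) was not well above background in any channel. ADAM10, a membrane protease of the ADAM family, was 1.11-fold lower in active EBF3 caps and 1.06-fold higher in hGR control caps.

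Among 8 collagen probes, 2 were past 2-fold with active EBF3, both higher, against 2.11% of all usable probes. The probe col9a3-prov is for a chain of type IX collagen, which coats the collagen fibrils of cartilage. It gave 5893 in active EBF3 caps and 877 in the reference, then 426 in hGR control caps and 617 in the reference. The active EBF3 signal was above the other 3, at 6.72-fold over the reference (2.75 ± 0.26), while hGR caps were 1.45-fold lower (-0.54 ± 0.23). With normexp and the offset of 50 these log2 ratios were 2.05 and -0.19. The probe col1a2-prov is for a chain of type I collagen, the main fibre of connective tissue. It gave 1270 in active EBF3 caps and 276 in the reference, and 123 in hGR control caps and 228 in the reference, the hGR signal not being well above background. It was 4.61-fold higher in active EBF3 caps (2.20 ± 0.29) and at least 1.11-fold lower in hGR control caps (-0.89 ± 0.51). Its log2 ratio with active EBF3 was 1.01 with normexp and the offset of 50.

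The partner chain of type I collagen, probed by col1a1-prov, was not well above background in any channel, with signals of 72.9 to 92.2. The probe for type XVIII collagen of basement membranes (LOC398292) was 1.66-fold higher in active EBF3 caps (0.73 ± 0.20), at 1350 against 815, and 1.02-fold lower in hGR control caps, at 753 against 769. Type II collagen, the fibril of cartilage and notochord, had a probe for each copy. COL2A1 (col2a1.L) was 1.17-fold lower in active EBF3 caps and 1.28-fold higher in hGR control caps, and LOC397739 (col2a1.S) was below the detection flag throughout. The type VI collagen probe col6a1-prov was 1.24-fold lower in active EBF3 caps (-0.31 ± 0.34) and at least 1.53-fold lower in hGR control caps (-0.84 ± 0.38). An EST resembling a type IV chain (BG020154) gave no measured value on either array.

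Fibronectin and laminin showed no measured difference of 2-fold. The fibronectin probe (fn1.S) gave 30532 in active EBF3 caps against 35502 in the reference, and 22230 in hGR control caps against 27913. It was 1.16-fold lower in active EBF3 caps (-0.22 ± 0.16) and 1.26-fold lower in hGR control caps (-0.33 ± 0.17), so both treated channels lay below their references by less than 2 spot errors. The 1 laminin probe, an EST resembling the alpha 1 chain (BG021035), was not well above background in any channel.

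The FLRT proteins are transmembrane proteins with leucine-rich repeats and a fibronectin-like domain, and the *Xenopus* Flrt3 protein is known to act in FGF signalling and cell adhesion. The flrt3 probe gave 3914 in active EBF3 caps and 551 in the reference, and 281 in hGR control caps and 377 in the reference. It was 7.11-fold higher in active EBF3 caps (2.83 ± 0.27), the highest ratio among the 42, and 1.34-fold lower in hGR control caps (-0.43 ± 0.30). The flrt2 probe gave 1741 and 408 on the first array and 297 and 242 on the second. It was 4.27-fold higher in active EBF3 caps (2.09 ± 0.25) and 1.23-fold higher in hGR control caps (0.30 ± 0.34). With normexp and the offset these ratios were 1.87 for flrt3 and 1.13 for flrt2. Both entered the set through the word fibronectin and are not matrix proteins.

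**Figure D2:**
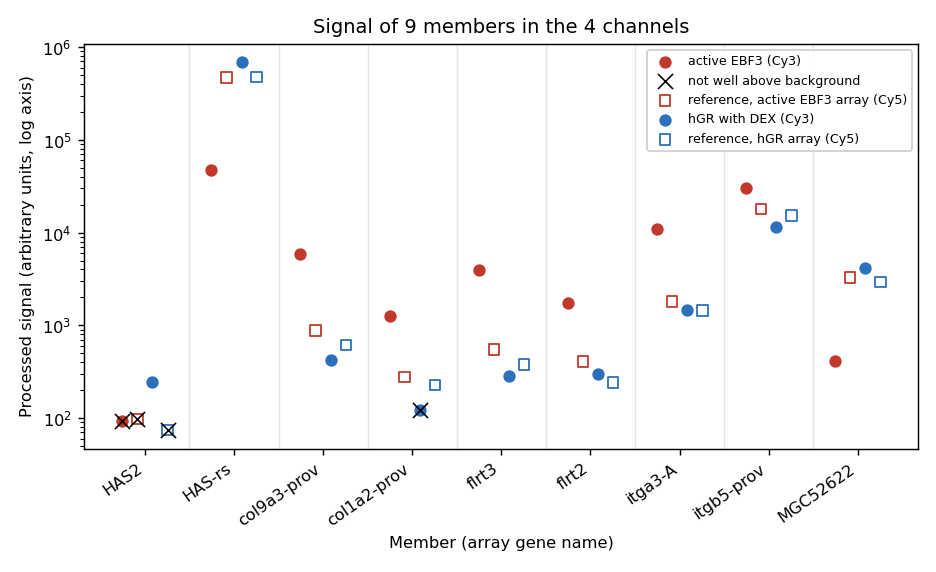
Processed signal (arbitrary units, log axis) of the 9 members chosen as HAS2 or past 2-fold with a measured bright channel, in the 4 channels. Circles are treated samples, squares the references, red the active EBF3 array, blue the hGR array, and crosses mark channels not well above background. The active EBF3 circle stands above the other 3 channels for col9a3-prov, col1a2-prov, flrt3, flrt2, itga3-A and itgb5-prov, and below them for HAS-rs and MGC52622.

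Of 7 integrin alpha probes, 4 had both channels well above background on the active EBF3 array. Only 1 passed 2-fold, and it was higher, against 2.11% of all usable probes. Integrin alpha 3 (itga3-A) pairs with beta 1 to bind laminins. Its signal was 11066 in active EBF3 caps and 1798 in the reference, and 1463 in hGR control caps and 1448 in the reference. It was 6.15-fold higher in active EBF3 caps (2.62 ± 0.25), and the hGR and reference signals differed 1.01-fold (0.02 ± 0.17). By comparison, integrin alpha 5 (itga5-A), a subunit of the main fibronectin receptor, gave 4158 against 4156 on the first array and 2847 against 3732 on the second, which was 1.31-fold lower in hGR control caps (-0.39 ± 0.17). The alpha V probe (LOC397997) was 1.18-fold lower in active EBF3 caps (-0.24 ± 0.41). In hGR control caps it was 1.23-fold lower (-0.30 ± 0.36), with Cy3 not well above background. Both ratios were smaller than their spot errors. An EST resembling alpha M (BG579626) was 1.25-fold higher and 1.02-fold higher. Both alpha 4 probes (LOC397839, BI446436) and the alpha 2 probe (itga2-A) were not well above background in any channel.

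Of the 2 integrin beta probes, 1 passed 2-fold between the treated samples, higher with active EBF3, against 5.12% of all probes. Integrin beta 5 (itgb5-prov), which pairs with alpha V to bind vitronectin, gave 30152 in active EBF3 caps and 17885 in the reference, and 11494 in hGR control caps and 15255 in the reference. It was 1.69-fold higher in active EBF3 caps (0.75 ± 0.17) and 1.33-fold lower in hGR control caps (-0.41 ± 0.17), so that only the difference between the treated samples passed 2-fold. Integrin beta 1 (LOC397755), the shared partner of most alpha subunits above, gave 17535 against 16304 and 16107 against 13951. It was 1.08-fold and 1.15-fold higher. Integrin-linked kinase (ilk-prov), an adapter on integrin tails, was 1.15-fold higher in active EBF3 caps and 1.26-fold higher in hGR control caps.

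The surface proteoglycans lay within 0.20 of the reference on the log2 scale on both arrays. Their 3 probes were for syndecan-2 (sdc2-A-prov), syndecan-3 (sdc3-A) and glypican-4 (Xgly4), a lipid-anchored proteoglycan that acts in Wnt signalling. Ratios ran from -0.18 to 0.13 in active EBF3 caps and from -0.20 to 0.17 in hGR control caps. The syntenins, adapters that bind syndecan tails, had 2 probes. With active EBF3, 1 of them was at least 2-fold lower, against 2.03% of all usable probes. The sdcbp-prov probe gave 34492 with active EBF3 against 34073 (1.01-fold higher) and 26176 in hGR control caps against 29441 (1.12-fold lower). MGC52622, described only as similar to syntenin, gave 408 in active EBF3 caps and 3289 in the reference, and 4125 in hGR control caps and 2925 in the reference. It was 8.05-fold lower in active EBF3 caps (-3.01 ± 0.29) and 1.41-fold higher in hGR control caps (0.50 ± 0.17). With normexp and the offset its log2 ratio with active EBF3 was -1.80.

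None of the 9 matrix metalloproteinase probes showed a measured 2-fold difference on either array. The probe for the membrane-type enzyme mmp15 gave 12583 against 12671 in active EBF3 caps and 10595 against 10810 in hGR control caps, ratios of -0.01 ± 0.16 and -0.03 ± 0.16. The probes MGC68994 (matrix metalloproteinase 13) and gene A (collagenase-3) were 1.16-fold and 1.07-fold lower with active EBF3, and 1.11-fold and 1.09-fold higher in hGR control caps. The mmp24-prov probe was 1.61-fold lower in active EBF3 caps (-0.68 ± 0.38), with Cy3 not well above background. It was 1.23-fold lower in hGR control caps (-0.29 ± 0.35). The remaining 5 probes were not well above background in any channel, and a difference there was not detectable. Among them, MT3-MMP matched the same RefSeq symbol as mmp24-prov (mmp16.L), so these probes differed in detection under 1 symbol.

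Members named only by the word collagen also stayed under 2-fold. Shc1 was closest, at 1.85-fold higher in active EBF3 caps (0.89 ± 0.18) and 1.30-fold higher in hGR control caps (0.37 ± 0.17). The collagen-modifying enzyme plod-prov was 1.34-fold and 1.31-fold higher, the procollagen processing factor pcolce2-prov was 1.02-fold lower and 1.24-fold higher, and the scavenger receptor relative cd36l2-prov was 1.23-fold and 1.09-fold lower.

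Both arrays had untreated hGR-Xebf3 caps as the reference, so active EBF3 was also set against hGR as the difference of the 2 log2 ratios. This removes the reference as far as the Cy5 samples of the 2 arrays were alike. Whether they were a single RNA pool is not known here. By this measure 7 members were at least 2-fold higher in active EBF3 caps (16.7%, against 5.12% of 21219 probes) and 3 were at least 2-fold lower (7.14%, against 3.26%). Among the 25 members measured in all 4 channels, 7 passed 2-fold. The share past 2-fold over all probes measured in this way was not counted, and the shares above are for a wider set. HAS-rs was 14.1-fold lower and MGC52622 11.4-fold lower with active EBF3 than with hGR. The higher members were col9a3-prov at 9.74-fold, flrt3 at 9.55-fold, itga3-A at 6.09-fold, flrt2 at 3.48-fold and itgb5-prov at 2.24-fold. The other 18 ran from -0.58 (COL2A1) to 0.76 (LOC398292). The SD of this difference was 1.59 over the 25 members and 0.61 over all 9944 probes measured in the same way. The difference between the reference channels of the 25 had an SD of 0.18. The 1.59 was widened by the 7 members past 2-fold, of which flrt3, flrt2 and MGC52622 were named loosely. It is not a spread shared by the other 18. The treated samples are separate samples with 1 replicate each, so this spread also holds their sample-to-sample variation, which was not measured. Of the members past 2-fold but not measured in all 4 channels, col1a2-prov was at least 5.09-fold higher and HAS2 at least 1.44-fold lower with active EBF3 when the Cy3 channels were compared directly. The third, mmp21-A, held no measured difference. With median centring in place of the dye curve 7 of 41 members were past 2-fold higher (17.1%, against 6.27% of all probes) and 8 lower (19.5%, against 10.5%). Of these 8, 2 had a channel well above background on both arrays.

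**Figure D3:**
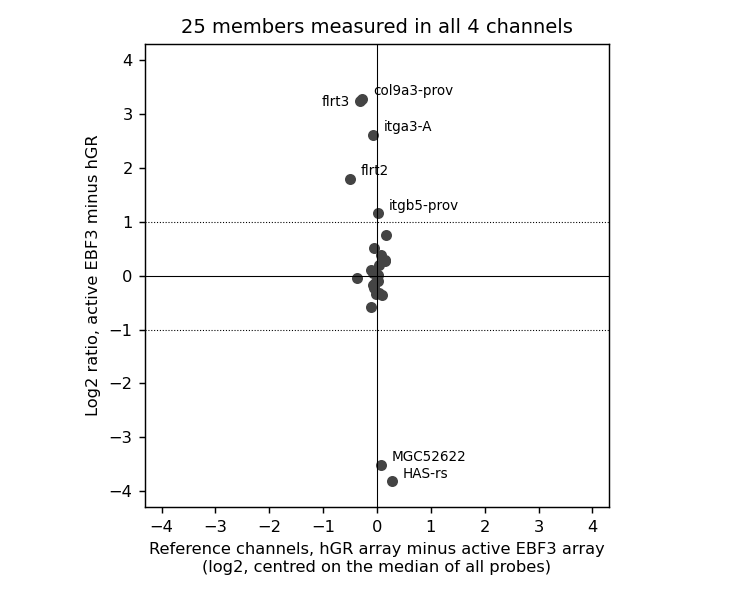
Difference between the log2 ratios of active EBF3 and hGR (vertical axis) against the log2 difference between the reference channels of both arrays (horizontal axis), for the 25 members well above background in all 4 channels. Dotted lines mark 2-fold. The reference channels differed by -0.51 to 0.27, while the difference between treated samples ran from -3.82 (HAS-rs) to 3.28 (col9a3-prov).

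Other matrix and adhesion genes outside the rule were listed by name, for example perlecan, thrombospondin, SPARC, lysyl oxidase, dystroglycan, paxillin and vinculin. Of the 10 probes found, 1 was at least 2-fold higher (against 2.11% of all usable probes) and 0 lower (against 2.03%) with active EBF3. In hGR control caps 0 passed 2-fold, and 5 probes were below the detection flag in both channels of each array. The 1 higher probe was thbs3-prov for thrombospondin 3, a secreted matrix glycoprotein. It gave 1020 in active EBF3 caps and 223 in the reference, then 111 in hGR control caps and 211 in the reference. It was at least 4.58-fold higher in active EBF3 caps (2.20 ± 0.31). In hGR control caps it was at least 1.03-fold lower (-0.93 ± 0.55), a bound far smaller than the spot error. The 2 probes for dystroglycan, a laminin receptor, were both higher on both arrays and below 2-fold. LOC398500 was 1.66-fold and 1.36-fold higher, and dag1-prov 1.49-fold and 1.26-fold higher.

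Some probes for markers of the cap ectoderm itself and of other cell types also differed from the reference on the active EBF3 array. Of all usable probes, 2.11% were at least 2-fold higher and 2.03% lower with active EBF3. In hGR control caps these shares were 1.02% and 4.08%. The lists hold few probes each, so their counts are descriptive only. Of 6 usable probes for ectoderm and epidermis, all were well above background in at least 1 channel and 3 were at least 2-fold lower with active EBF3. The summed signal of this list, over probes usable on both arrays and so without dlx3-A-prov, was 479999 with active EBF3. It was 737779 in hGR control caps, and 1006281 and 727935 in the references, which thus differed as well. Of 4 skeletal muscle probes, 2 (XMyf-5 and LOC397758) were at least 2-fold higher in active EBF3 caps and 0 in hGR control caps. Summed signals of this list were 72970 with active EBF3 against 629 to 1519 in the other channels. The rise was uneven, with the largest ratio for LOC397758, so the sum does not stand for each muscle probe. The acta1-prov probe stayed under 2-fold with active EBF3 (log2 0.24). Of 6 mesoderm and endoderm probes, 2 were higher with active EBF3, and the sum was 97091 against 5851 to 9998. In hGR control caps 1 of 5 usable ectoderm probes was at least 2-fold lower, and 0 of the muscle, mesoderm and endoderm probes passed 2-fold. Of 6 neural probes 1 was higher in active EBF3 caps, Sox-2 (summed signal 388435, against 288902 to 314886). Of 3 blood and endothelium probes 2 were higher (9358, against 515 to 587). Of 3 neural crest probes 1 was higher, foxd3-A (2477, against 931 to 1495). The sums of these other lists do not stand for each probe either. With active EBF3 the neural probe opl and the neural crest probe LOC398235 were below the reference, by less than 2-fold. Among mesoderm and endoderm probes the largest ratio was for LOC397703. The desmin probe (des-B-prov) and Xbra were not well above background in any channel. The part of these cell types in the collagen, integrin and hyaluronan values was not tested.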

How the data were processed

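Total RNA from animal caps was measured on 2 two-colour Agilent *Xenopus* arrays of 22575 spots. Per the file headers, spot intensity was extracted with Agilent Feature Extraction 8.1.1.1 at 10 µm per pixel. For the deposited processed intensity, the authors' software subtracted a spatially detrended background, substituted surrogates for spots not above it, and normalized the dyes within each array by LOWESS (smoothing factor 0.25). The deposited log10 ratio is Cy5 over Cy3. The deposited p-value of a ratio covers spot error and was used only as a filter. The table of the whole series equalled the turned log10 ratio (100% of values, within 1e-05).

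Here log2 ratios were Cy3 over Cy5 of processed intensity, so that positive values are higher in the treated sample. Control features and non-uniform spots (212 and 152) were left out and 2-fold was the threshold, after the methods of the study. The software's own flag defined a signal well above background. Where 1 channel lacked it, the brighter channel was set against the higher of the dim value and the lowest value well above background there, after Aquantile normalization (limma 3.58.1). A fold given in this way as at least a value does not cover the spot error. No test could be run on single arrays, and array and group cannot be told apart. The calling functions were tested on simulated data. Reference signals centred on their median gave the gauge of technical spread.

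Named members were HAS2, those past 2-fold with a bright channel well above background, and the probe with the highest reference signal in each class. Other members are named to account for the set. Members and lists were chosen with earlier results of these data known. RefSeq names (Xenopus_laevis_v10.1) were used for names only. No probe sequence is shown. Alternatives were normexp (offset 50) with loess, median centring of background-subtracted signals with no dye curve, the deposited ratio, filters on dim spots, 1.5-fold and 3-fold, a spot p under 0.01, stricter wording and 1 value per gene name.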

Additional observations from a re-analysis of the deposited data

Results flagged for a closer look

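Counting members with a channel well above background on both arrays, 5 were past 2-fold with active EBF3 and on the opposite side of the reference in hGR caps by more than the SD of the reference channels. The log2 ratio with active EBF3 minus that with hGR was -3.82 for HAS-rs, -3.51 for MGC52622, 3.28 for col9a3-prov, 3.25 for flrt3 and 3.10 for col1a2-prov. With 1 array each, the difference was not tested. The share of all gene probes that meet this rule was not counted, so the 5 are not read as a trait of matrix genes. The hGR side was small in each case, between 0.43 and 0.89 in size, and for col1a2-prov the hGR signal was not well above background. With normexp (offset 50) the hGR ratios of flrt3 and col1a2-prov were -0.15 and -0.13, inside the SD of 0.17, and that of col9a3-prov was -0.19, while HAS-rs and MGC52622 were at 0.68 and 0.38.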

How the results depend on the processing

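No paired analysis was possible because there was a single array per group, without any test, and no replicate could be left out. Of 84 alternative values of the counts and medians, 69 stayed within 1.5 times the count or within 0.17 (log2), the SD between reference channels. The 69 include settings that could not change a member value. These were keeping non-uniform spots, as 0 members had one, and 1 value per gene name, as the 42 names are distinct. The deposited ratio, from the same processed signals, could change little. The comparison of Cy3 with Cy3 was added after seeing the data. The 5 members at least 2-fold higher with active EBF3 became 8 with median centring and 8 at 1.5-fold (19.0%, against 4.74% of all probes). With strict wording they became 3 of 33 (flrt2 and flrt3 left out), against 2.11% of all probes. The 2 lower became 1 of 33 with strict wording (MGC52622 left out), against 2.03% of all probes. That 1 was HAS-rs, kept although it is named by relation to the hyaluronan synthases. In hGR caps the 1 higher member (HAS2) became 0 with normexp and in probes well above background in both channels, and 8 with median centring. The 1 lower member (mmp21-A) became 0 with normexp, median centring, the deposited log ratio, a spot p under 0.01 and both filters on dim spots, and 5 at 1.5-fold (11.9%, against 10.4% of all probes). Between treated samples, the 3 lower members became 8 with median centring. Over all probes, median centring called 9.07% higher with active EBF3, 13.5% higher with hGR and 10.5% lower between treated samples. Of 108 alternative values of single named members, 73 moved by at most 0.17, 35 moved more and 0 of those past 2-fold changed sign. The 73 include every value of the deposited ratio, which comes from the same processed signals and was nearly bound to stay. All 35 that moved were therefore from normexp or median centring. The cause of these moves was not tested. Signal over background limits the 12 members seen in no channel, for which no difference was detectable.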
